A study of Mus musculus with 30 samples.

Results

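The matricellular genes described here are 10 named rows: the tenascins Tnc and Tnn, periostin (Postn), Sparc (osteonectin), the thrombospondins Thbs1, Thbs2, Thbs3 and Thbs4, and the spondins Spon1 and Spon2. Each symbol matched 1 row in every file, so they are 10 of 25520 gene symbols in the untreated libraries and 10 of 25410 in the libraries of the hormone experiment. They were followed in mouse IDG-SW3 cells, an immortalised line that passes from an osteoblast-like to an osteocyte-like state in culture.

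Matricellular proteins are secreted into the extracellular matrix but are not its main structural fibres. They bind collagens, growth factors, proteases and cell-surface receptors, and they change how a cell adheres to and reads its matrix. In bone, Sparc is one of the most abundant non-collagenous proteins and binds collagen and mineral, and periostin marks the periosteum and assists collagen cross-linking. Tenascin-C and tenascin-W (the product of Tnn) are found around bone-forming cells. Thbs1 activates latent TGF-beta and is itself a gene that TGF-beta, serum and YAP signalling raise, while Thbs2 is known from marrow stromal cells.

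All 30 libraries came from this line. It was expanded at 33 °C with interferon-gamma, which keeps its temperature-sensitive T antigen active, and was differentiated at 37 °C without interferon-gamma on collagen-coated plates with ascorbic acid and beta-glycerol phosphate. Untreated cells were collected at day 3, then at day 7, and then every 7 days to day 35, and the hormone groups were cells given vehicle (ethanol) or 100 nM 1,25(OH)2D3, the active form of vitamin D, for 24 h at day 3 or day 35, with 3 libraries in each group. The untreated and hormone libraries were made with different kits, so their levels were never tested against each other. All are 1 line, and the submitters call the 3 libraries of a group biological replicates without naming separate thaws or passages, so p-values measure the spread between these cultures.

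Tnc, Tnn and Postn dipped in mid-course in untreated cells, while every Sparc library from day 7 on lay above those of day 3. Their promoters are shown so that the letters around their start sites can be compared. The windows are RefSeq promoter sequences of build GRCm38.p6, 250 bases before to 50 bases after the annotated start, on the gene's own strand from 5′ to 3′. Capitals mark matches, on either strand, to short motifs searched in every window, with the reverse complement in capitals where the match lies on the other strand. The motifs were TATAAA of the TATA box, CAGACA of Smad proteins, GGAATG of TEAD proteins, TGTGGT of RUNX proteins, AGGTCA of the vitamin D receptor and other nuclear receptors, the AP-1 motif as TGACTCA and its reverse complement, and the SRF CArG box.
Tnc (chr4:64046966-64047265, minus strand): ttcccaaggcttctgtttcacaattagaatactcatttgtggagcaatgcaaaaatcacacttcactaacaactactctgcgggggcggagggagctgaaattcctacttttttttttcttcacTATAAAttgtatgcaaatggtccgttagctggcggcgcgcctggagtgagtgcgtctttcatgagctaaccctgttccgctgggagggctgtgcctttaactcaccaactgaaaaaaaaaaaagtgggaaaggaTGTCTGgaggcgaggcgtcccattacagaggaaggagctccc
Tnn (chr1:160153526-160153825, minus strand): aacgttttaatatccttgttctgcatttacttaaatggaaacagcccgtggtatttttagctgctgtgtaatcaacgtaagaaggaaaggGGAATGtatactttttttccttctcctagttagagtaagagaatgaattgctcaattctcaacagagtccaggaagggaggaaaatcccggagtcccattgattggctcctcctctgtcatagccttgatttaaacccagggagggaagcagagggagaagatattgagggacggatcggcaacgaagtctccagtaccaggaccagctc
Postn (chr3:54360857-54361156, plus strand): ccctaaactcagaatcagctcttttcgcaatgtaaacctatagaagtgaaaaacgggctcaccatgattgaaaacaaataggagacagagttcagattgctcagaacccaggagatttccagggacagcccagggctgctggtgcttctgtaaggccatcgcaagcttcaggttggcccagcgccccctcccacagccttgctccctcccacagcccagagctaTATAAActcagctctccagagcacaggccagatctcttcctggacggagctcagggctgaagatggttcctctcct
Sparc (chr11:55420031-55420330, minus strand): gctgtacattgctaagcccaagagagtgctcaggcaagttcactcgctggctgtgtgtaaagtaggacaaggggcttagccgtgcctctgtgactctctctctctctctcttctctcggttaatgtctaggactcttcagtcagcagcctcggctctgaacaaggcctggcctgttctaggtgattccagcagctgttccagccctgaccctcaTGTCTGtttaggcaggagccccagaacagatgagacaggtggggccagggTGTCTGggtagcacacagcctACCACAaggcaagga

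The Postn window holds TATAAA starting at position -26 from the start site, the usual place of a TATA box. The Tnc window holds TATAAA at -126 and the reverse complement of the Smad motif at 9. The Tnn window holds 1 match, GGAATG at -160. The Sparc window holds the reverse complement of the Smad motif at -36 and 15 and that of the RUNX motif at 36, and its start lies 3103 bases downstream of the 5′ end of the gene in GENCODE. None of the 4 windows shares a TEAD, RUNX or nuclear receptor match with another. Among all 32851 RefSeq windows, 13.6% held TATAAA, 21.0% the Smad motif, 14.7% the TEAD motif, 16.8% the RUNX motif, 16.3% AGGTCA, 5.2% an AP-1 motif and 1.63% a CArG box. Matches are letters in a window and not sites of binding. In all, 7 of the 10 genes had a window in the table. The other Tnc and Postn windows, at upstream or downstream alternative starts, and those of Thbs2, Thbs3 and Thbs4 held between 0 and 3 matches each.

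The untreated files give RPKM (reads per kilobase of gene, scaled to library depth). Ribosomal RNA rows made up 72.6% to 88.9% of the summed RPKM in these libraries, and day 35 replicate 3 stood apart with the highest share. The median change over all 9933 genes tested fell with time, to a log2 value of -0.69 at day 35 against day 3, so changes are given as listed and, where the reading turns on the scaling, after centring every library on its median. Replicate 1 of every day shared a sequencing run, and the other replicates were spread over 3 other runs of which none held every day, so run and day are partly confounded. The hormone libraries hold 22062866 to 54325515 counts. Olfactory receptor genes should not be expressed by these cells, so their counts per kilobase were taken as a background. Projected over the exon length of all annotated genes, it would make 1.29% to 1.89% of the counts in day 3 hormone libraries. The same projection gave 0.103% to 0.143% in day 3 vehicle libraries and 1.09% in hormone day 35 replicate 2. That background is given beside the low genes it reaches. The osteoblast markers Runx2, Sp7, Alpl, Bglap, Ibsp and Col1a1 summed to 123 to 160 RPKM at day 3 and 466 to 801 RPKM at day 35. The osteocyte markers Dmp1, Phex, Mepe, Sost and Pdpn summed to at most 1.38 RPKM in any untreated library, with Sost listed at 0 before day 28. In the hormone experiment they summed to 107 to 133 CPM (counts scaled to library size) with vehicle at day 3 and 427 to 562 CPM at day 35. Of the macrophage markers, Ptprc was at most 0.013 RPKM and 0 CPM, and Emr1 0 RPKM and at most 0.988 CPM. The sum of this list, 9.32 to 10.8 RPKM at day 3, was nearly all Cd14, which averaged 9.46 RPKM beside 0.391 for Cd68 and 0.02 for Csf1r.

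The 10 genes covered more than 3 orders of magnitude in level. At day 3, Thbs1 stood at rank 31 of all 25520 symbols by mean RPKM, Sparc at rank 190, Thbs2 at 274, Tnc at 812, Postn at 885 and Tnn at 1429. Thbs3 and Spon2 were lower, at ranks 3637 and 6306. Spon1 and Thbs4 were listed at 0 on days 3 and 7 and never passed 0.623 and 0.127 RPKM. Hprt and Tbp, which all cells use, were also listed at 0 in 3 and 4 of the 18 libraries, so a listed 0 does not show that the gene was silent.

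**Figure D1:**
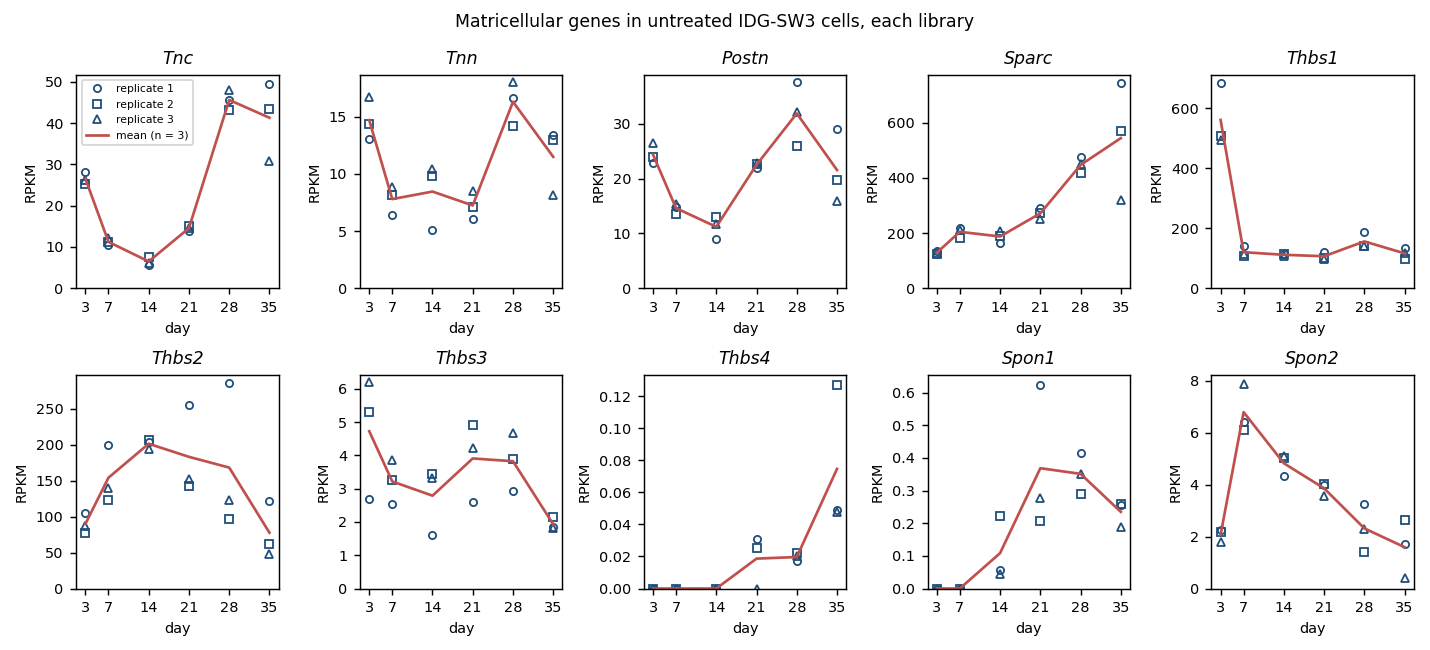
RPKM of each of the 10 genes (y axis, a linear scale of its own per panel) on days 3 to 35 (x axis) in untreated cells. Symbols are the 3 libraries of a day and the line joins their means. Tnc, Postn and Tnn dip between days 7 and 21, Thbs1 drops after day 3, every Sparc library from day 7 on lies above day 3, and Thbs2 replicate 1 lies above the other libraries on days 21, 28 and 35.

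Of the 8 genes that passed the filter of at least 1 RPKM in at least 3 libraries, 5 changed by day 7 (1 higher, 4 lower), where 25.7% of all genes tested were called at an adjusted p under 0.05 (limma, Benjamini-Hochberg). By day 14 it was 6 of 8 (2 higher, 4 lower; 29.7% of all genes), by day 21 5 of 8 (2 higher, 3 lower; 37% of all genes), by day 28 3 of 8 (2 higher, 1 lower; 41.5% of all genes) and by day 35 4 of 8 (2 higher, 2 lower; 57.1% of all genes). The shares of the 10 genes at days 28 and 35 lie near or below those of all genes. After centring the counts were 6 (35.1% of all genes), 7 (41%), 6 (48.4%), 6 (50.6%) and 5 (51.1%) of 8. All 5 comparisons share the day 3 libraries. From one collection day to the next fewer calls were made, with 0 of 8 from day 7 to day 14 (2.87% of all genes), 1 of 8 from day 14 to day 21 (0.634%), 2 of 8 from day 21 to day 28 (1.24%) and 0 of 8 from day 28 to day 35 (7.98%). At the 2 steps with no limma call, an unadjusted limma p was under 0.05 for 1 gene at the first, Tnc, and for 3 at the last, Thbs2, Thbs3 and Postn. After centring the 4 steps gave 1 (5.39% of all genes), 3 (2.06%), 4 (2.76%) and 1 (3.31%) calls.

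The tenascins and periostin fell and came back. Tnc encodes tenascin-C, a large oligomeric glycoprotein of tissue under load or repair. The 3 libraries of day 3 read 28.2, 25.3 and 26.2 RPKM, those of day 7 10.5, 11.1 and 12.1, and those of day 14 5.71, 7.65 and 6.09. Day 21 followed with 13.9, 15.1 and 14.7 RPKM, day 28 with 45.6, 43.3 and 47.9, and day 35 with 49.6, 43.4 and 30.9. In order of mean level the days ran 14, 7, 21, 3, 35 and 28, and the libraries of neighbouring days overlapped only between days 35 and 28. Against day 3, Tnc changed by a log2 value of -1.20 ± 0.21 (SE) at day 7 (adjusted p = 0.000295), by -1.96 ± 0.21 at day 14 (adjusted p = 9.85e-07) and by -0.84 ± 0.21 at day 21 (adjusted p = 0.00298). It was higher than at day 3 by 0.77 ± 0.21 at day 28 (adjusted p = 0.00494) and by 0.60 ± 0.21 at day 35 (adjusted p = 0.0173). After centring, the day 28 and day 35 changes were 1.17 and 1.43. The step from day 21 to day 28 was 1.61 ± 0.21 (adjusted p = 0.000167), at which 1.24% of all genes were called. The day 35 call was lost without day 3 replicate 2 (0.57, adjusted p = 0.0637) or replicate 3 (0.59, adjusted p = 0.0539) and without day 35 replicate 1 (0.46, adjusted p = 0.0636) or replicate 2 (0.55, adjusted p = 0.0597). The earlier step from day 14 to day 21, 1.12 ± 0.21 (adjusted p = 0.0109; 0.634% of all genes called), was lost for 3 libraries: day 14 replicate 3 (adjusted p = 0.0667), and replicates 2 (adjusted p = 0.1) and 3 (adjusted p = 0.0601) of day 21.

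Postn, which encodes a collagen-binding fasciclin-domain protein, traced a like curve over a smaller range. Its day 3 libraries read 22.8, 23.9 and 26.5 RPKM and its day 14 libraries 8.96, 12.9 and 11.7. The day 28 libraries read 37.5, 25.9 and 32.2 and those of day 35 29.0, 19.8 and 15.8. The day 14 libraries all lay below those of day 3, and the libraries of day 28 and day 35 overlapped those of day 3. The fall was -1.10 ± 0.23 (SE, log2) at day 14 (adjusted p = 0.0012). The fall at day 7, -0.72 ± 0.23 (adjusted p = 0.028), was lost whichever day 3 or day 7 library was left out (adjusted p from 0.06 to 0.101). The changes at day 28 (0.37, adjusted p = 0.217) and day 35 (-0.21, adjusted p = 0.44) did not pass as listed, while after centring both passed as gains (0.77 and 0.61), so the sign at day 35 depends on the scaling.

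Tnn encodes tenascin-W, a tenascin of developing bone and of some tumour stroma. It read 13.1, 14.3 and 16.7 RPKM at day 3, then 6.37, 8.16 and 8.86 at day 7, and 6.09, 7.11 and 8.52 at day 21. It was back at 16.7, 14.2 and 18.0 at day 28. All 3 libraries of days 7, 14 and 21 lay below all 3 of day 3. The changes against day 3 were -0.88 ± 0.26 (SE, log2) at day 7 (adjusted p = 0.0202), -0.82 ± 0.26 at day 14 (adjusted p = 0.0242) and -0.98 ± 0.26 at day 21 (adjusted p = 0.00624), and the step from day 21 to day 28 was 1.12 ± 0.26 (adjusted p = 0.0384). That step was lost when any of 9 single libraries was left out, with the highest adjusted p without day 28 replicate 3 (1.05, adjusted p = 0.204). The Tnn call at day 7 was lost with day 3 replicate 2 left out (adjusted p = 0.0563), and likewise for day 3 replicate 3 and day 7 replicate 1 (adjusted p = 0.0818 each). Its call at day 14 was lost without day 14 replicate 1 (-0.51, adjusted p = 0.122), and for 2 of the day 3 libraries, replicate 2 (adjusted p = 0.0619) and replicate 3 (adjusted p = 0.0971). At day 35 Tnn stood at -0.37 as listed (adjusted p = 0.241) and 0.46 centred (adjusted p = 0.0335).

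Over the 18 untreated libraries, centred log2 values of Tnc correlated with those of Postn at r = 0.95 and of Tnn at r = 0.91, and Tnn with Postn at r = 0.83. Sparc, without a dip below day 3, correlated with them too, at r = 0.76 with Tnc, 0.73 with Postn and 0.62 with Tnn. These are descriptions over libraries that share days, runs and scaling. The 2 genes most like Tnc were Mid2 and Arl4d (r = 0.97 each), those most like Tnn were Cdk5r1 (r = 0.97) and Lzts1 (r = 0.93), and those most like Postn were Tnc itself and Thbd (r = 0.94), which encodes thrombomodulin. Arl4d, a small GTPase of the Arf family, averaged 13.2 ± 1.91 RPKM (SD, n = 3) at day 3, 4.04 ± 1.09 at day 14 and 14.2 ± 4.68 at day 35. The ratio of Tnc to Tnn within a library, which no scaling of the library can move, was 1.57 to 2.15 at day 3, 0.583 to 1.12 at day 14 and 3.35 to 3.80 at day 35. So within the shared curve Tnc swung more widely than Tnn, with no overlap between these 3 days.

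Sparc was higher at days 21, 28 and 35 than at day 3. Its product is a calcium- and collagen-binding glycoprotein laid down with bone matrix. It read 135, 125.3 and 127 RPKM at day 3, then 219, 184 and 212 at day 7, and 166, 189 and 208 at day 14. It read 290, 274 and 252 at day 21, then 475, 417 and 449 at day 28, and 744, 570 and 319 at day 35. Every library from day 7 on lay above every library of day 3. The mean went from 205 RPKM at day 7 to 188 at day 14, with overlap. Day 35 replicate 3 was the lowest of its day and fell below the day 28 libraries. The changes against day 3 were 1.07 ± 0.25 (SE, log2) at day 21 (adjusted p = 0.0019), 1.79 ± 0.25 at day 28 (adjusted p = 8.51e-06) and 1.99 ± 0.25 at day 35 (adjusted p = 1.3e-06), or 2.81 at day 35 after centring. Without day 35 replicate 3 the day 35 change was 2.33 (adjusted p = 6.51e-08), and between the replicate 1 libraries of both days, which shared a run, it was 2.46. The changes at day 7 (0.66, adjusted p = 0.0549) and day 14 (0.53, adjusted p = 0.112) did not pass as listed and passed after centring (0.55 each). The genes most like Sparc were Dyrk2 and Gprc5c (r = 0.98 each).

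Thbs1 was the most abundant of the 10 genes at day 3 and lost most of that level within days. Thrombospondin-1 is a trimeric glycoprotein that activates latent TGF-beta and binds CD47 and CD36. Day 3 libraries read 684, 508 and 493 RPKM, against 139, 108 and 113 on day 7. From day 7 to day 35 all libraries lay between 96.7 and 186 RPKM, with day 28 highest and the other 4 days overlapping. The change against day 3 was -2.21 ± 0.22 (SE, log2) at day 7 (adjusted p = 7.35e-07), -2.31 ± 0.22 at day 14 (adjusted p = 2.33e-07) and -2.26 ± 0.22 at day 35 (adjusted p = 5.17e-08), the last being -1.44 after centring. It stayed called whichever library was left out, and between the replicate 1 libraries, which shared a run, the day 35 change was -2.34. The gene most like it was 9430076C15Rik (r = 0.98), followed by Pappa (r = 0.96), which encodes a protease of IGF-binding proteins and fell from 2.46 ± 0.22 RPKM (SD, n = 3) at day 3 to 0.346 ± 0.093 at day 7.

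Thbs2, which encodes a trimeric relative that lacks the TGF-beta-activating sequence of Thbs1, took the opposite early course. Its day 3 libraries read 105, 77.5 and 87.1 RPKM and its day 14 libraries 203, 207 and 194, with no overlap. From day 21 the libraries of a day split, with replicate 1 at 255, 285 and 122 RPKM on days 21, 28 and 35 and the other replicates between 48.5 and 152. The change against day 3 was 1.17 ± 0.37 (SE, log2) at day 14 (adjusted p = 0.0209) and 0.98 ± 0.37 at day 21 (adjusted p = 0.0417). The Thbs2 call at day 14 was lost with its replicate 2 left out (adjusted p = 0.057), and also for replicates 2 (adjusted p = 0.0778) and 3 (adjusted p = 0.0584) of day 3. The day 21 call was lost without any of the 3 day 3 libraries (adjusted p from 0.0523 to 0.127), without day 21 replicate 1 (0.72, adjusted p = 0.18) or replicate 3 (adjusted p = 0.0558). At day 35 the listed and centred values were -0.31 and 0.51, neither called. The genes most like Thbs2 were Pcdhb17 (r = 0.96) and Ghr (r = 0.95).

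The ratio of Thbs1 to Thbs2 within each library put the exchange between these trimeric thrombospondins on a scale free of library scaling. It was 5.66 to 6.55 at day 3, 0.699 to 0.874 at day 7 and 0.549 to 0.559 at day 14. Later it was 0.471 to 0.717 at day 21, 0.653 to 1.47 at day 28 and 1.10 to 2.42 at day 35. All day 3 libraries thus held several times more Thbs1 than Thbs2 per length, and all libraries of days 7, 14 and 21 held less. Those of day 28 lay on both sides of an equal level. Of the summed RPKM of the 10 genes, Thbs1 made 65.6% ± 3.03 (SD, n = 3) at day 3 and 15.3% ± 5.51 at day 35, while Sparc made 15.3% ± 1.44 and 65.7% ± 6.05. Thbs2 peaked at 37.7% ± 2.18 on day 14.

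**Figure D2:**
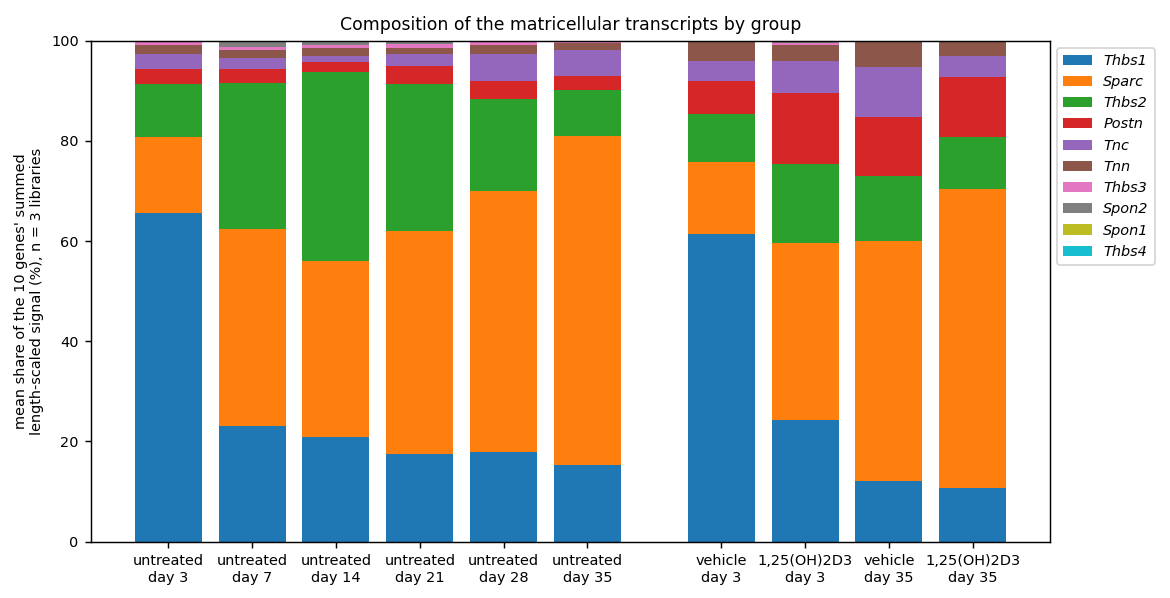
Mean share of each gene in the summed length-scaled signal of the 10 genes (y axis, percent; RPKM for untreated groups, counts per kilobase of GENCODE exon for the hormone groups) in the 10 groups of 3 libraries (x axis). Thbs1 fills 65.6% of the bar in untreated and 61.4% in vehicle cells at day 3, and Sparc 65.7% and 47.9% at day 35.

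The other members were low. Thbs3, a pentameric thrombospondin of skeletal tissue, had day 3 libraries of 2.68, 5.31 and 6.19 RPKM and day 35 libraries of 1.84, 2.14 and 1.81, which did not overlap. Its day 35 change was -1.04 ± 0.30 (SE, log2; adjusted p = 0.00637) as listed, -0.22 after centring (adjusted p = 0.559), and -0.64 with the sequencing run in the model (adjusted p = 0.119). Replicate 1 was the lowest Thbs3 library on days 3, 7, 14, 21 and 28. Exons of Mtx1 on the other strand cover 6.59% of the Thbs3 exon bases, and reads there cannot be told apart without strand. Spon2, a secreted protein with roles in adhesion and innate immunity, read 2.27, 2.18 and 1.78 RPKM at day 3 and 6.43, 6.11 and 7.87 at day 7. Its mean then declined from day to day, to libraries of 1.72, 2.65 and 0.416 at day 35. The change against day 3 was 1.50 ± 0.33 (SE, log2) at day 7 (adjusted p = 0.00243) and 1.05 ± 0.33 at day 14 (adjusted p = 0.0197), the second lost without day 14 replicate 2 (adjusted p = 0.0574) or 3 (adjusted p = 0.0594), without day 3 replicate 3 (adjusted p = 0.0708) and with the sequencing run in the model (adjusted p = 0.0907). Spon2 ran against Thbs1 over the 18 libraries (r = -0.81). Spon1, F-spondin, was first listed above 0 at day 14 and reached 0.623, 0.206 and 0.276 RPKM at day 21. Thbs4, a pentameric relative known from tendon and muscle, was first listed above 0 at day 21.

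**Figure D3:**
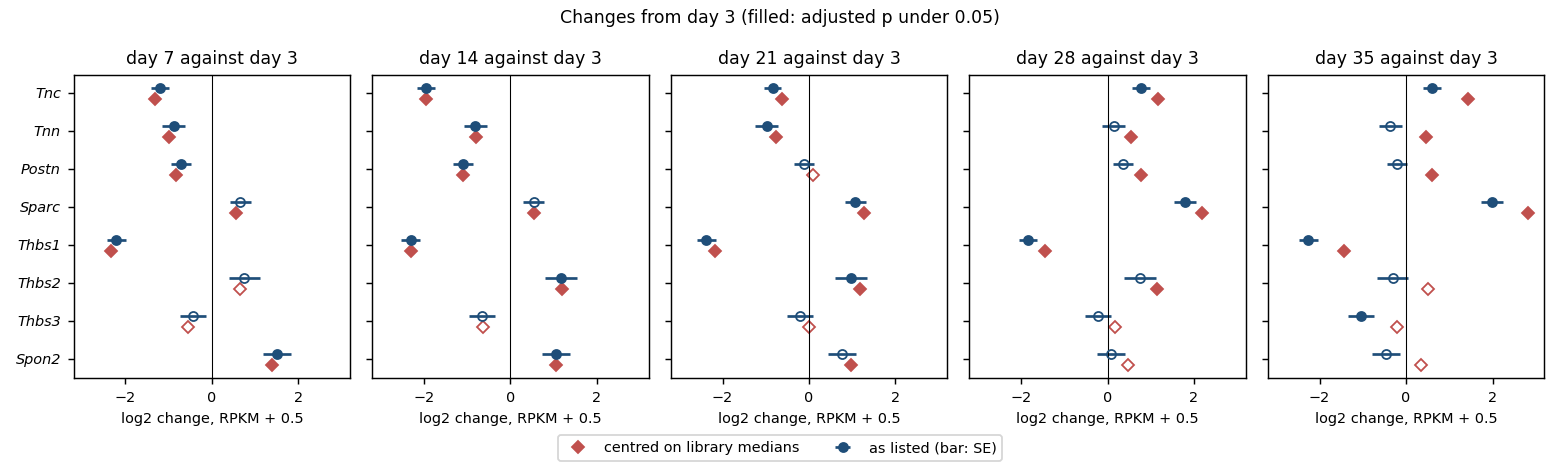
Log2 change of RPKM + 0.5 from day 3 (x axis) for the 8 genes tested (y axis), 1 panel per later day. Blue circles with SE bars are values as listed and red diamonds are values after centring each library on its median; filled symbols have an adjusted p under 0.05. The gap between both values of a gene widens to day 35, where Postn lies at -0.21 and 0.61.

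The vehicle libraries of the hormone experiment gave a second, separately prepared comparison of day 35 with day 3. Every one of the 10 genes passed the count filter and was called there, 7 higher and 3 lower, at 29.9% of all 20055 genes tested (edgeR quasi-likelihood test, Benjamini-Hochberg). Tnc read 1354, 1612 and 1484 CPM at day 3 and 3891, 4985 and 5269 at day 35, a rise of 1.67 ± 0.15 (SE, log2; adjusted p = 7.81e-07). Postn rose from 2655, 2747 and 2825 CPM to 6521, 5923 and 6415 (1.20 ± 0.14, adjusted p = 1.3e-05), and Tnn from 944, 1171 and 1161 CPM to 1744, 1714 and 1971 (0.73 ± 0.15, adjusted p = 0.00137). For these 3 genes the groups did not overlap. The untreated comparison gave 0.60, -0.21 and -0.37 as listed and 1.43, 0.61 and 0.46 centred for Tnc, Postn and Tnn.

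Sparc read 2109, 3585 and 2389 CPM at vehicle day 3 and 10506, 11118 and 11639 at day 35, a rise of 2.04 ± 0.21 (SE, log2; adjusted p = 2.67e-06). Thbs1 read 15952, 19809 and 18733 CPM and then 4966, 4268 and 4154, a fall of -2.03 ± 0.17 (adjusted p = 3.06e-07). The untreated comparison gave 1.99 and -2.26. Thbs2 rose by 0.77 ± 0.18 (adjusted p = 0.00426), from 3165, 3367 and 3296 CPM to 5660, 5296 and 5837, where the untreated day 35 comparison made no call. The ratio of Thbs1 to Thbs2 per kilobase went from 5.81 to 6.78 across the vehicle day 3 libraries to 0.821 to 1.01 across those of day 35.

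Spon1 read 8.56, 15.2 and 12.8 CPM at vehicle day 3 and 39.6, 35.1 and 27.7 at day 35 (1.49 ± 0.23, SE, log2; adjusted p = 0.000122). Thbs4 had 1, 0 and 5 counts at day 3 and 122, 66 and 58 at day 35, of which the background level predicts at most 4.06. The fitted Thbs4 change of 5.80 (adjusted p = 0.000286) depends on the prior count because of the near-empty day 3 libraries. Spon2 fell from 19.9, 17.6 and 14.8 CPM to 12.8, 11.2 and 11.6 (-0.55 ± 0.17, adjusted p = 0.0261), and Thbs3 changed by -0.83 ± 0.27 (adjusted p = 0.0286) with groups that overlapped. The Spon2 call was lost without vehicle day 3 replicate 1 (-0.43, adjusted p = 0.0975), or vehicle day 35 replicate 2 (adjusted p = 0.101) or 3 (adjusted p = 0.0913). The Thbs3 call was lost without vehicle day 3 replicate 2 (-0.58, adjusted p = 0.136), or vehicle day 35 replicate 2 (adjusted p = 0.117) or 3 (adjusted p = 0.12).

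Acta2, Tagln and Cnn1, listed with Myh11 as smooth muscle markers, were lower at day 35, as Thbs1 was, in both experiments. Myh11 itself was at most 0.137 RPKM and at 0 CPM in every group of the hormone experiment. The sum of the list was 138 to 156 RPKM at untreated day 3 and 12.0 to 20.2 at day 35, and 1505 to 2593 CPM and then 174 to 225 CPM with vehicle. Tendon markers (Scx, Tnmd, Mkx and Fmod) varied widely within groups, from 182 to 695 CPM at vehicle day 3 and from 305 to 685 CPM at vehicle day 35. Their part in the results on the 10 genes was not tested. In bulk libraries fewer cells of a type and less RNA per cell cannot be told apart.

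At day 3, 24 h of 1,25(OH)2D3 lowered 7 of the 10 genes and raised 1 by the test, where 20.5% of all genes were called (9.09% lower, 11.4% higher). Thbs1 read 15952, 19809 and 18733 CPM with vehicle and 2035, 1963 and 1750 with hormone, a fall of -3.25 ± 0.18 (SE, log2; adjusted p = 2.32e-08), or 9.48-fold. The ratio of Thbs1 to Thbs2 fell from 5.81 to 6.78 across the vehicle libraries to 1.47 to 1.71 across the hormone libraries. The share of Thbs1 in the 10 genes' signal went from 61.4% ± 1.35 (SD, n = 3) to 24.3% ± 0.795, and that of Sparc from 14.4% ± 2.61 to 35.4% ± 2.33, since a share grows when another gene's falls.

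Both tenascins fell with hormone at day 3. Tnn went from 944, 1171 and 1161 CPM to 273, 208 and 261 (-2.14 ± 0.15, SE, log2; adjusted p = 4.2e-07), and Tnc from 1354, 1612 and 1484 to 629, 614 and 684 (-1.21 ± 0.15, adjusted p = 8.61e-05). The groups lay far apart for both genes. Postn fell by -0.78 ± 0.14 (adjusted p = 0.00212), from 2655, 2747 and 2825 CPM to 1525, 1630 and 1636. Thbs2 fell by -1.21 ± 0.18 (adjusted p = 0.00044), from 3165, 3367 and 3296 CPM to 1369, 1537 and 1336. The calls of Thbs1, Tnn, Tnc, Postn and Thbs2 held whichever library was left out.

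Sparc moved least among the genes called. It read 2109, 3585 and 2389 CPM with vehicle and 1969, 1662 and 1588 with hormone, and replicate 2 of vehicle stood apart. The change of -0.63 ± 0.20 (SE, log2; adjusted p = 0.0425) was lost without that library (-0.38, adjusted p = 0.15) and without hormone day 3 replicate 1 (adjusted p = 0.0526), 2 (adjusted p = 0.108) or 3 (adjusted p = 0.129). It was also lost with RLE size factors (adjusted p = 0.0619) and after subtracting the background (adjusted p = 0.105). Thbs3 (-0.57, adjusted p = 0.128) and Spon2 (0.18, adjusted p = 0.44) were not called.

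The low genes need the background beside them. Spon1 had 351, 675 and 557 counts with vehicle and 68, 104 and 91 with hormone, and the olfactory receptor level predicts 48.2, 44.8 and 62.1 counts of its length in the hormone libraries. Its fall was -2.22 ± 0.24 (SE, log2; adjusted p = 2.22e-05) and became -3.35 (adjusted p = 1.1e-05) after subtraction. Thbs4 had 1, 0 and 5 counts with vehicle and 25, 8 and 16 with hormone, where the background predicts 15.3, 14.2 and 19.7. The Thbs4 call (3.37, adjusted p = 0.0221) was lost after subtraction (adjusted p = 0.303), and without hormone day 3 replicate 1 (2.75, adjusted p = 0.0701) or vehicle day 3 replicate 1 (2.99, adjusted p = 0.06). So 2 of its 3 hormone libraries hold no more Thbs4 counts than that background predicts. For the 6 abundant genes the background predicts at most 0.366% of the counts in any library.

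**Figure D4:**
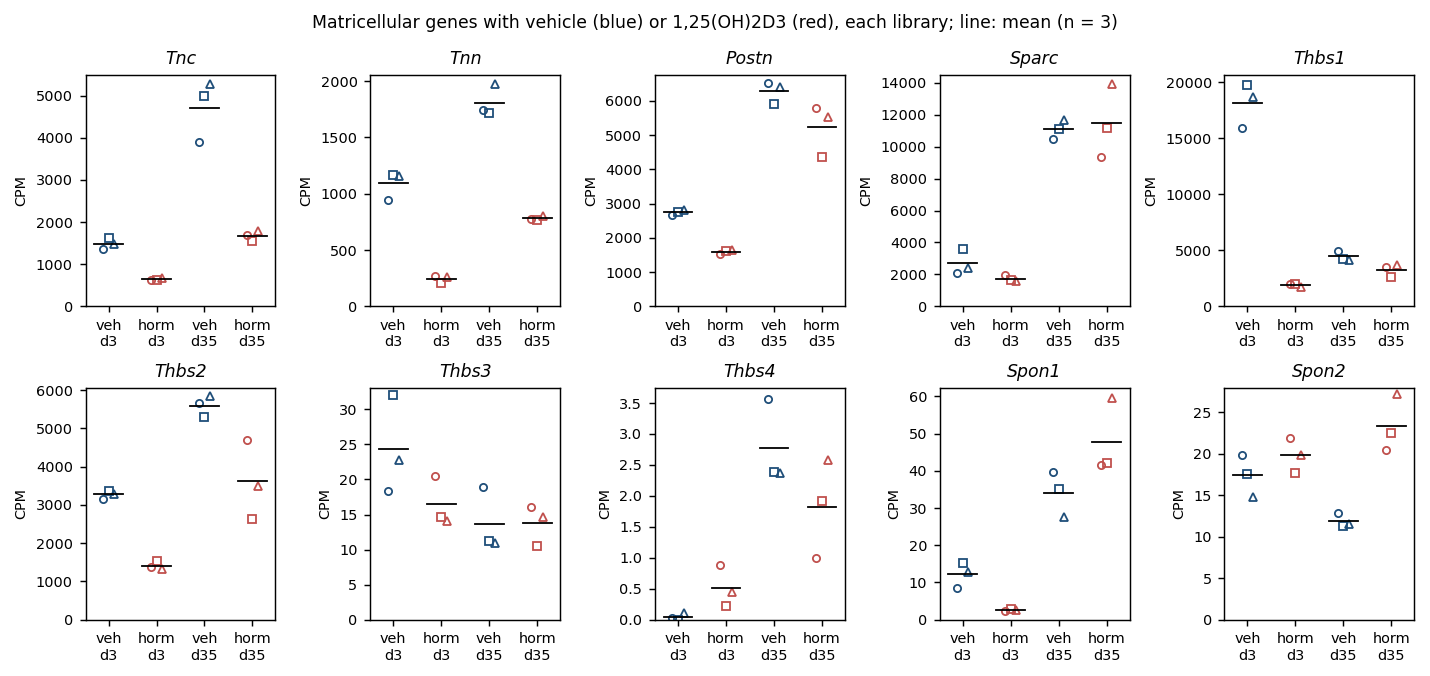
CPM of each of the 10 genes (y axis, a linear scale of its own per panel) in vehicle (veh, blue) and 1,25(OH)2D3 (horm, red) libraries of day 3 (d3) and day 35 (d35). Each symbol is 1 library and the line is the mean of 3. Thbs1 lies between 15952 and 19809 CPM in vehicle day 3 libraries and between 1750 and 2035 CPM with hormone.

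At day 35 the same treatment changed 3 of the 10 genes, at 4.56% of all genes called. Tnc fell from 3891, 4985 and 5269 CPM to 1693, 1554 and 1791 (-1.49 ± 0.15, SE, log2; adjusted p = 2.12e-05). Tnn fell from 1744, 1714 and 1971 CPM to 778, 766 and 801 (-1.21 ± 0.15, adjusted p = 0.000121). Spon2 rose from 12.8, 11.2 and 11.6 CPM to 20.5, 22.4 and 27.1 (0.98 ± 0.18, adjusted p = 0.00315). No groups overlapped for these 3 genes, and leaving out any one library kept all 3 calls. The mean Tnc level with hormone at day 35, 1679 ± 119 CPM (SD, n = 3), stood beside 1483 ± 129 with vehicle at day 3. At day 35 the ratio of Tnc to Postn per kilobase fell from 0.668 to 0.942 across vehicle libraries to 0.327 to 0.399 across hormone libraries. Of the osteoblast markers 2 of 6 were called lower and 0 higher at day 35, where 2.14% of all genes were called lower. They summed to 20182 to 25905 CPM with vehicle and 10398 to 13053 CPM with hormone. The osteocyte markers, 1 of 5 called lower, summed to 427 to 562 CPM with vehicle and 446 to 551 CPM with hormone. Of the 5 chondrocyte markers (Acan, Col2a1, Sox9, Col10a1 and Matn3), 1 was called higher and 1 lower. Acan averaged 51.6 CPM with vehicle and 12.8 with hormone, while the list summed to 81.0 to 151 CPM and 87.4 to 116 CPM, with overlap. The part of these lists in the Tnc and Tnn values was not tested.

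The rest did not pass at day 35. Thbs2 read 5660, 5296 and 5837 CPM with vehicle and 4708, 2626 and 3507 with hormone, with no overlap (-0.63 ± 0.18, SE, log2; adjusted p = 0.066). It passed without hormone day 35 replicate 1 (-0.82, adjusted p = 0.016), with RLE size factors (adjusted p = 0.0445), after background subtraction (adjusted p = 0.0341) and by DESeq2 (adjusted p = 0.00239). Thbs1 read 4966, 4268 and 4154 CPM with vehicle and 3527, 2661 and 3690 with hormone (-0.44 ± 0.16, adjusted p = 0.194), and was called by DESeq2 (adjusted p = 0.0168). Postn (-0.27, adjusted p = 0.444), Spon1 (0.48, adjusted p = 0.331), Sparc (0.05, adjusted p = 0.951), Thbs3 (0.00, adjusted p = 0.999) and Thbs4 (-0.60, adjusted p = 0.809) were not called by edgeR.

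The response itself differed between the days for 3 of the 10 genes, at 7.08% of all genes called in the test of that difference. For Thbs1 the day 35 response was 2.81 ± 0.24 (SE, log2) above that of day 3 (adjusted p = 3.35e-06), for Spon1 2.70 ± 0.33 (adjusted p = 9.86e-05) and for Tnn 0.93 ± 0.21 (adjusted p = 0.0128). For Tnc the difference was -0.28 ± 0.21 (adjusted p = 0.434), so Tnc fell at both days and a difference between its responses was not detected. For Spon2, called at day 35 and not at day 3, it was 0.79 ± 0.25 (adjusted p = 0.0669). The day 3 response, the vehicle comparison of the days and this difference share the vehicle day 3 libraries. Thbs1 in those libraries was 4.07-fold above vehicle day 35, and the hormone brought it at day 3 to 315 ± 24.4 CPM per kilobase (SD, n = 3), beside 735 ± 72.4 with vehicle and 542 ± 91.0 with hormone at day 35.

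**Figure D5:**
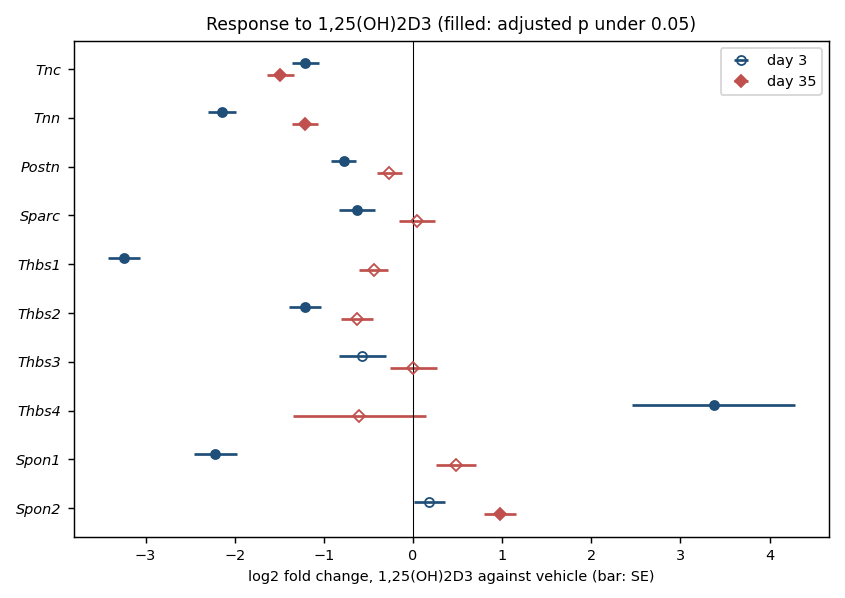
Log2 fold change of 1,25(OH)2D3 against vehicle (x axis; bars are SE) for the 10 genes (y axis) at day 3 (blue circles) and day 35 (red diamonds), with filled symbols at an adjusted p under 0.05. Thbs1 moves from -3.25 at day 3 to -0.44 at day 35, while Tnc lies at -1.21 and -1.49.

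1 hormone day 3 library, replicate 3, held adipocyte markers (Adipoq, Fabp4, Plin1 and Cidec) at a summed 159 CPM, where the lowest library of its group held 1.62 and the vehicle day 3 libraries 1.61 to 3.92. Plin1 was at or below 0.192 CPM throughout. Without that library 7 of the 10 genes were called at day 3, Thbs1 fell by -3.19 (adjusted p = 9.98e-07) and Tnc by -1.26 (adjusted p = 0.000707), and Sparc was lost as given above. The share of all genes called in that fit is not given here, so the 7 is no result about the 10 genes. Acta2, Tagln and Cnn1 fell with hormone at day 3 as well, the sum of the smooth muscle list going from 1505 to 2593 CPM to 701 to 747 CPM, and their part in these results was not tested.

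Genes related to the 10 by family or function were counted in the same fits, and every count is read beside all genes tested. In untreated cells at day 35 against day 3, 5.63% of all genes were called higher and 51.5% lower as listed, and 29.5% and 21.5% after centring. With vehicle 15.5% were higher and 14.5% lower, with hormone at day 3 11.4% and 9.09%, and with hormone at day 35 2.41% and 2.14%. Of 16 relatives (Comp, the SPARC family, Tgfbi and the CCN genes among them), 9 were tested in untreated cells and 7 changed at day 35 against day 3, 1 higher and 6 lower, with a median of -2.10 beside -0.69 over all genes. After centring 2 were higher and 6 lower, with a median of -1.27 beside 0.14 over all genes. Comp, the pentameric cartilage thrombospondin, rose by 1.73 ± 0.27 (SE, log2; adjusted p = 2e-05) from 1.31 ± 0.461 RPKM (SD, n = 3) to 5.48 ± 1.59, or by 2.55 after centring. Ctgf, a CCN protein, fell by -4.21 ± 0.25 (adjusted p = 1.99e-10) from 238 ± 23.0 RPKM to 12.6 ± 3.00, and Tgfbi, the relative of periostin, by -3.12 ± 0.17 (adjusted p = 6.55e-11), which were -3.39 and -2.30 after centring. With vehicle, 5 of 14 relatives were higher and 5 lower at day 35. Smoc2, a SPARC-related protein, rose by 2.89 and Wisp1 by 2.06, while Cyr61 and Ctgf, both CCN proteins, fell by -2.88 and -3.53. The 2 rises were not seen in untreated cells as listed, and their direction there is not given apart from the scaling. Wisp1 averaged 2.36 ± 0.403 RPKM (SD, n = 3) there at day 3 and 1.54 ± 0.306 at day 35, and Smoc2 0.195 and 0.158. Cyr61 was lower there too, at 435 ± 69.6 and then 47.5 ± 19.7 RPKM, as Ctgf was. With hormone at day 3, 1 of 14 was higher and 6 were lower, Cyr61 falling from 1729 ± 388 CPM to 147 ± 2.03 (-3.55, adjusted p = 1.19e-08), while Spock3, at 0.511 and 1.53 CPM, was the call higher (1.58, adjusted p = 0.0211) in the libraries with the high olfactory receptor background, whose part was not tested. At day 35, 1 was higher and 2 were lower. Ctgf rose from 130 ± 15.9 CPM to 353 ± 21.1 (1.44, adjusted p = 0.00465), having been at 1502 ± 712 with vehicle and 13.2 ± 3.42 with hormone at day 3, and Wisp1 fell by -0.87 (adjusted p = 0.000307).

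Receptors moved in both directions. Of 17 receptor genes, 10 were tested in untreated cells, and 7 were lower and 0 higher at day 35 as listed, or 4 lower and 1 higher after centring. Sdc4, a cell-surface heparan sulfate proteoglycan, fell by -2.44 ± 0.30 (SE, log2; adjusted p = 1.03e-06), and Egfr by -1.67 ± 0.21 (adjusted p = 2.16e-06), or by -1.62 and -0.84 after centring. With vehicle, 4 of 15 were higher and 3 lower. Ptprz1, a receptor phosphatase that binds tenascins, averaged 0.114 CPM at vehicle day 3 and 82.1 ± 14.5 CPM (SD, n = 3) at vehicle day 35, and Ddr2, a collagen receptor, rose by 0.70 ± 0.13 (adjusted p = 0.000755). As listed in untreated cells the Ddr2 mean went the other way, from 2.73 ± 0.304 RPKM (SD, n = 3) at day 3 to 1.24 ± 0.467 at day 35. The median over all genes also fell there, by a log2 value of -0.69, and these means are not centred. A contrary direction of Ddr2 apart from the scaling is therefore not shown. With vehicle Egfr and Sdc4 fell by -1.38 (adjusted p = 0.000103) and -1.26 (adjusted p = 0.0014). With hormone, 2 of 15 were higher and 4 lower at day 3, and 3 higher and 1 lower at day 35. Ptprz1 fell at day 35 to 17.1 ± 5.18 CPM (-2.26, adjusted p = 0.00391), the same direction as Tnc and Tnn there, while Sdc1 rose by 0.94 (adjusted p = 0.00201). At day 3 Sdc4 fell by -1.59 (adjusted p = 0.00078), and Ptprz1 was called higher at 3.01 ± 0.569 CPM beside 0.114 with vehicle (adjusted p = 0.000159) in the libraries with the high olfactory receptor background, whose part was not tested.

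Of 13 matrix genes that these proteins bind or are cut by, 7 were called higher and 1 lower, Adamts1, at day 35 with vehicle. In untreated cells 2 of 13 were higher and 5 lower as listed and 8 higher and 3 lower after centring, a list whose balance turned with the scaling. Col1a2 rose by 2.43 and Col5a1, a regulator of fibril width, by 1.13 with vehicle (adjusted p = 2.16e-07 and 2.79e-05), and Adamts1 fell by -3.48 (adjusted p = 2.15e-09). Col5a1 in untreated cells averaged 7.93 ± 1.00 RPKM (SD, n = 3) at day 3 and 1.99 ± 0.103 at day 35, the opposite direction. In untreated cells the collagen chaperone Serpinh1 rose by 0.92 (adjusted p = 0.0276), or 1.74 after centring. Group means of Serpinh1 ran from 160 to 317 RPKM in untreated cells but only from 4.82 to 12.0 CPM in the hormone experiment. The reason for that gap was not tested. Col1a1, the main bone collagen chain, rose from 113 ± 18.6 to 261 ± 69.7 RPKM (SD, n = 3; 1.18 ± 0.24, SE, log2; adjusted p = 0.000388), or by 2.01 centred. Lox, a collagen cross-linking enzyme, fell from 24.1 ± 4.54 to 1.12 ± 0.515 RPKM (-3.96, adjusted p = 8.82e-10; -3.13 centred). With vehicle the Lox difference was much smaller and not called, at 2414 ± 575 CPM (SD, n = 3) on day 3 and 1616 ± 541 on day 35. Adamts1, a protease that cleaves thrombospondins, fell from 272 ± 21.5 to 23.4 ± 6.03 RPKM (-3.53, adjusted p = 3.61e-09; -2.71 centred). With hormone 4 of 13 were lower and 0 higher at day 3, and 1 was higher and 1 lower at day 35, the lower one being Col5a1 (-0.77, adjusted p = 0.00433). Adamts1 fell at day 3, from 4473 ± 575 to 1601 ± 66.5 CPM (-1.48, adjusted p = 2.27e-05), and rose at day 35, from 402 ± 35.7 to 1090 ± 183 CPM (1.44, adjusted p = 5.29e-05), a difference between the responses of 2.92 ± 0.23 (adjusted p = 1.56e-06).

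In a chosen list of 12 genes known as targets of TGF-beta or YAP signalling, most of those tested were lower late in culture. Most were also lower after hormone at day 3. The activity of these pathways was not tested. At day 35 against day 3, 9 of 11 tested were lower and 1 higher in untreated cells, as listed and after centring, with a median of -2.20 beside -0.69 over all genes, or -1.38 beside 0.14 centred. With vehicle 9 were lower and 2 higher (median -2.68, all genes 0.17). With hormone at day 3, 10 were lower and 1 higher (median -1.55, all genes 0.26), and at day 35 1 was lower and 1 higher (median -0.37, all genes 0.02). Ankrd1 fell by -4.35 at untreated day 35 (adjusted p = 2.59e-11; -3.53 centred) and by -5.55 with vehicle (adjusted p = 2.09e-09). Skil, a repressor of Smad signalling, rose by 0.97 with vehicle (adjusted p = 0.0087), from 6.51 ± 1.40 to 12.8 ± 1.68 CPM (SD, n = 3). As listed in untreated cells its mean went the other way, from 12.1 ± 1.22 RPKM at day 3 to 9.08 ± 1.69 at day 35. These means are not centred, so a contrary direction of Skil apart from the scaling is not shown. Ltbp2, a latent TGF-beta binding protein family member of elastic fibres, rose with hormone at both days, by 1.07 ± 0.24 at day 3 (adjusted p = 0.00818) and by 1.18 ± 0.24 at day 35 (adjusted p = 0.00753). Ltbp2 was also higher at day 35 than at day 3, by 0.60 in untreated cells (adjusted p = 0.0322; 1.42 centred) and 1.49 with vehicle (adjusted p = 0.000218). Acta2 was the call lower with hormone at day 35 (-0.84, adjusted p = 0.0197). Acta2 and Tagln stand in this list and among the smooth muscle markers.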

How the data were processed

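RNA sequencing of 30 IDG-SW3 libraries was used, 18 untreated and 12 from the hormone experiment, with 3 per group. Ribosomal RNA was depleted before library preparation and reads were aligned with TopHat to mm9, per the labels' protocols and the submitters' processing notes, with the version not given in the sources used here. The authors deposited RPKM per gene for untreated libraries, whose depth was not recovered, and raw counts for the hormone libraries, whole numbers summing to 22062866 to 54325515 per library although the file names say RPKM. Untreated values were tested as log2(RPKM + 0.5) with limma 3.58.1 (trend) over all 18 libraries, keeping genes of at least 1 RPKM in at least 3 libraries, so fold changes of low genes are understated. Counts were tested with edgeR 4.0.16 (quasi-likelihood, TMM, filterByExpr) over all 12 libraries, in R 4.3.3, with Benjamini-Hochberg adjustment over all genes and a threshold of 0.05. Both were tested on simulated data. Simulated 2-fold changes were called in 56.0% of cases at untreated day 35 against day 3. With hormone at day 35 it was 26.1%, and 12.5% for the difference between responses. For 4-fold changes the values were 94.8%, 62.8% and 50%. A gene without a call may thus still have changed, above all in the last 2 comparisons. Alternatives were centring, quantile and non-rRNA scaling, other pseudocounts, no filter, sequencing run, replicate block, DESeq2 1.42.0, RLE factors, background subtraction and each library left out. The background was the mean count per kilobase of 1083 olfactory receptor genes, and lengths for CPM per kilobase were GENCODE M21 exon unions. All 10 genes were named. From each list, the 2 called genes of smallest adjusted p in each direction were named for day 35 against day 3, and 1 for each hormone contrast. The 2 genes of highest correlation with each gene were named too. Members and lists were chosen with earlier results of these data known. 1 gene that this rule names is not reported here.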

Additional observations from a re-analysis of the deposited data

Results flagged for a closer look

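The response to 1,25(OH)2D3 differed between day 35 and day 3 for 3 of the 10 genes by an interaction term in the edgeR fit. The differences, day 35 minus day 3 on the log2 scale, were 2.81 for Thbs1, 2.70 for Spon1 and 0.93 for Tnn, with adjusted p of 3.35e-06, 9.86e-05 and 0.0128. After subtracting the olfactory receptor background they were 2.69, 3.86 and 0.82. The background predicts 70.9%, 43.1% and 68.2% of the Spon1 counts in the 3 hormone libraries of day 3.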

How the results depend on the processing

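A changed sign that was also called occurred in 3 cases, all at untreated day 35 against day 3: Postn with centring (0.61) and with quantile scaling (0.31), and Tnn with centring (0.46). Called or not, the sign changed for 13 of 72 untreated values with centring, 11 with quantile scaling, 8 with non-rRNA scaling and 4 with the run in the model, and for 23 of 1776 values over all fits with 1 library left out. Thbs2 (-0.31 to 0.51) and Spon2 (-0.47 to 0.36) at day 35 changed sign with centring without a call. The cause was not tested here or in the counts below, beyond the fewer libraries or other genes each setting leaves. The share of all genes called moves with the setting too, at day 28 against day 3 from 41.5% as listed to 50.6% centred. Shares under the other settings are not given here, so the counts below are not read as results about the 10 genes. Counts of genes called moved as follows. At day 28 against day 3, 3 became 6 with centring and 5 with quantile or non-rRNA scaling. From day 7 to day 14, 0 became 1 with centring, no filter, quantile scaling, the replicate block, non-rRNA scaling or the run in the model. From day 14 to day 21, 1 became 3 with centring or non-rRNA scaling, and 2 with quantile scaling, the replicate block or the run. From day 21 to day 28, 2 became 4 with centring, quantile or non-rRNA scaling, and 1 with no filter. From day 28 to day 35, 0 became 1 with centring or non-rRNA scaling and 2 with the replicate block. DESeq2 called 5 where edgeR called 3 for hormone at day 35, and 6 where edgeR called 3 for the difference between responses.

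With 1 library left out, the counts ranged from 3 to 6 at day 7, 3 to 7 at day 14, 4 to 6 at day 21, 3 to 4 at day 28 and 3 to 4 at day 35 against day 3. The successive steps ranged from 0 to 1, 0 to 2, 1 to 3 and 0 to 2. Hormone at day 3 gave 6 to 8, hormone at day 35 3 to 4, vehicle day 35 against day 3 8 to 10, and the difference between responses 3 to 7.

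Replicate numbers were not taken as pairs, since not every same-numbered pair correlated above 0.1. In untreated cells 41 of 45 same-numbered pairs did (median r = 0.27), against 29 of 90 with different numbers (median r = -0.30), and replicate 1 shared a sequencing run. Same-numbered untreated libraries were thus more alike than others, which the main fit does not model. With the replicate block, 0 of 72 untreated and 0 of 40 hormone values changed sign. In the hormone experiment 4 of 18 same-numbered pairs correlated above 0.1, against 12 of 36 with different numbers. Of the libraries, 8 of 18 untreated and 4 of 12 of the hormone experiment correlated best with their own number. With the replicate block, the hormone counts were 7 at day 3, 3 at day 35, 10 for vehicle and 3 for the difference between responses, and Sparc at day 3 had an adjusted p of 0.064. Untreated depth is unknown, which leaves the precision of Spon1, Thbs4 and other low RPKM values unstated.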
